A study of Bos taurus with 12 samples.

Results

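The proximal end of bovine chromosome 1 was taken as every tile of the authors' deposited table with a start below 700000 on that chromosome, which gave 584 of the 7290 tiles listed. It was selected on position, after the density of listed tiles there and the mixed signs of their differences had been seen. The signs, differences and q-values below are therefore a description, and no test was run on them. A tile is a window of 500 bp in which the methylation of all CpG cytosines is pooled, and windows start every 100 bp, so that 537 of the 584 tiles share bases with the tile before them.

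Methylation of cytosine in CpG dinucleotides is laid down anew in the male germ line, and mature sperm carry it over most of the genome. CpG islands, which are short stretches rich in CpG and often lie at gene starts, are the usual exception and are mostly free of methylation in sperm. Cattle autosomes carry the centromere at one end, and by convention the assembly counts positions from that end.

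Sperm DNA of 6 samples labelled low BFI and 6 labelled high BFI was profiled by enzymatic methylation sequencing, which converts unmethylated cytosines with enzymes and spares the DNA the damage of bisulfite. All samples were male sperm cells of Bos taurus. The meaning of BFI, the breed and age of the bulls, and whether each sample came from another bull are not given in the sources used here. Only the authors' comparison of the groups was analysed, so methylation levels and depth are unknown, no error between bulls can be given, and a q-value cannot be read against the spread between replicates. The sign of a difference is as deposited, since the labels and headers leave the order of subtraction unstated. Differences are in percentage points, called points where a value is quoted.

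The proximal end of chromosome 1 held large differences of both signs, and most of its tiles had small negative ones. At a deposited q under 0.05 and a difference of at least 10 percentage points, 14 member tiles were called, or 2.40%, against 2.78% of all listed tiles. That share is near the background. Of the called tiles 10 were positive, or 1.71% of the members against 0.151% of all listed tiles, and 4 were negative, or 0.685% against 2.63%. Only 11 called tiles in the whole table were positive, and the members were chosen with their signs known, so nothing is read from this contrast. At a q under 0.05 and any difference, 461 members passed (78.9%, against 71.8% of all listed tiles), 382 of them negative (65.4%, against 55.9%) and 79 positive (13.5%, against 15.9%). For 42 of the 461 the deposited p was above 0.05, because the deposited q lay below the p.

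Negative differences made up 472 of the 584 members, or 80.8% (95% exact interval 77.4% to 83.9%, which covers no spread between bulls), against 70.8% of the 6706 other listed tiles. The interval treats overlapping tiles as independent and is therefore too narrow, so it is no test of the members against the other tiles. The median difference was -1.72 percentage points over the members, with quartiles at -2.77 and -0.43, and -0.85 over the other listed tiles. These values rest on 2 loci that hold 445 of the members. Outside them 139 members had a median of -0.24 percentage points and 56.8% were negative, and with 1 mean per locus the median was -0.63 and the negative share 57.6%. The members ran from -12.1 to 20.8 percentage points, and the other listed tiles from -21.3 to 11.2. By size, 119 members (20.4%) differed by under 1 percentage point, against 42.9% of the other listed tiles. Between 2 and 5 percentage points lay 272 members (46.6%), against 24.9% of the others.

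Along the chromosome the signs came in blocks. Tiles with gaps of at most 1000 bp formed 33 loci, of which 13 were wholly negative, 11 wholly positive and 9 of both signs. In 2 of those 9, tiles of both signs had a q under 0.05. Tiles of one sign with such gaps formed 60 runs, and 7 runs of at least 10 tiles held 412 of the 584 members. Pairs of members whose starts lay 500 to 900 bp apart share no base, and 91.4% of 1836 such pairs had the same sign. The share was 81.6% at 5000 to 9900 bp and 59.3% at 10000 to 49900 bp, beside 68.9% over all pairs of members. These pairs share tiles and samples, and the shares are given without a test. They also rest largely on the 2 loci that hold 445 of the members, whose tiles were 84.1% and 95.7% negative. Shares within each locus were not computed.

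**Figure D1:**
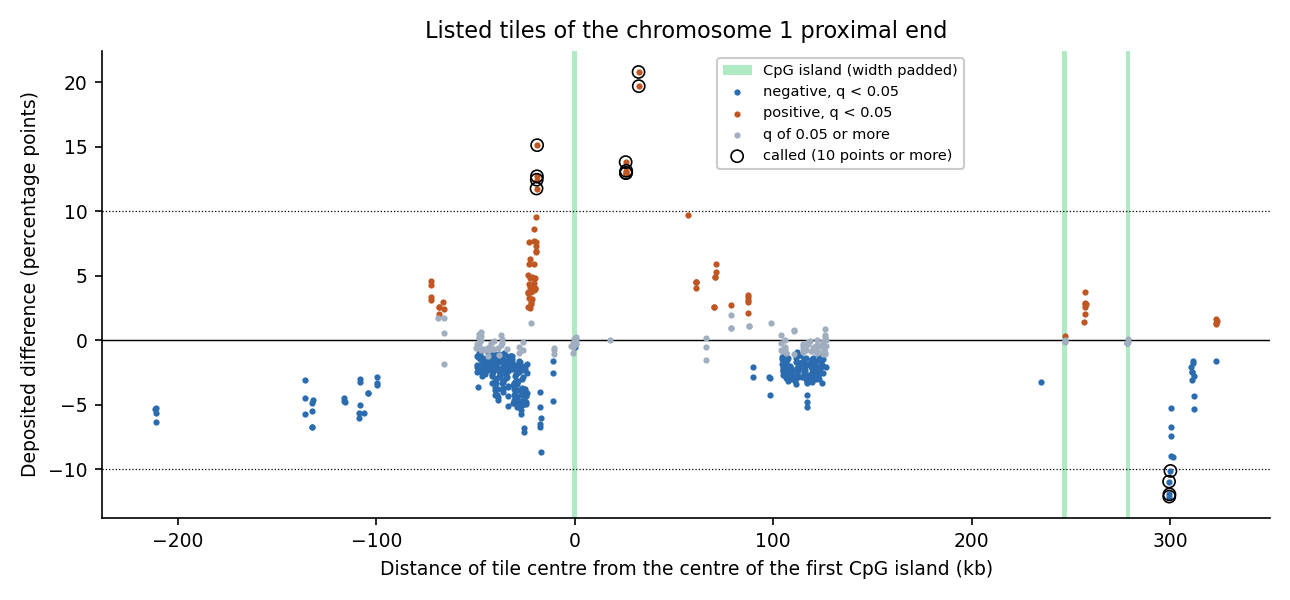
Deposited difference (percentage points) of each member tile against the distance of its centre from the centre of the CpG island at ENSBTAG00000006648 (kb), with called tiles circled and CpG islands in green. Called positive tiles, up to 20.8 percentage points, stand on both sides of that island, the called negative tiles, down to -12.1, stand at the far right, and the tiles on the 3 islands lie close to 0.

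The end nearest to the start of the chromosome was uniformly negative. From 135701 to 247900, in 8 loci, all 26 listed tiles were negative with a q under 0.05, and their median was -4.83 percentage points. The largest difference, -6.72 points by the authors' deposited table (q = 5.09e-06), was shared by the overlapping tiles from 214501 to 215000 and from 214601 to 215100. From 274301 to 281600 followed 12 positive tiles, 9 of them with a q under 0.05, and 1 negative tile overlapping the last had -1.84 points by the authors' deposited table (q = 0.0868). In the authors' deposited table the largest of these had 4.61 percentage points (q = 0.00219), from 274301 to 274800. The closest annotated feature of all these tiles was ENSBTAG00000006648, a protein-coding gene with no name in the table, and they were classed as distal intergenic.

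**Figure D2:**
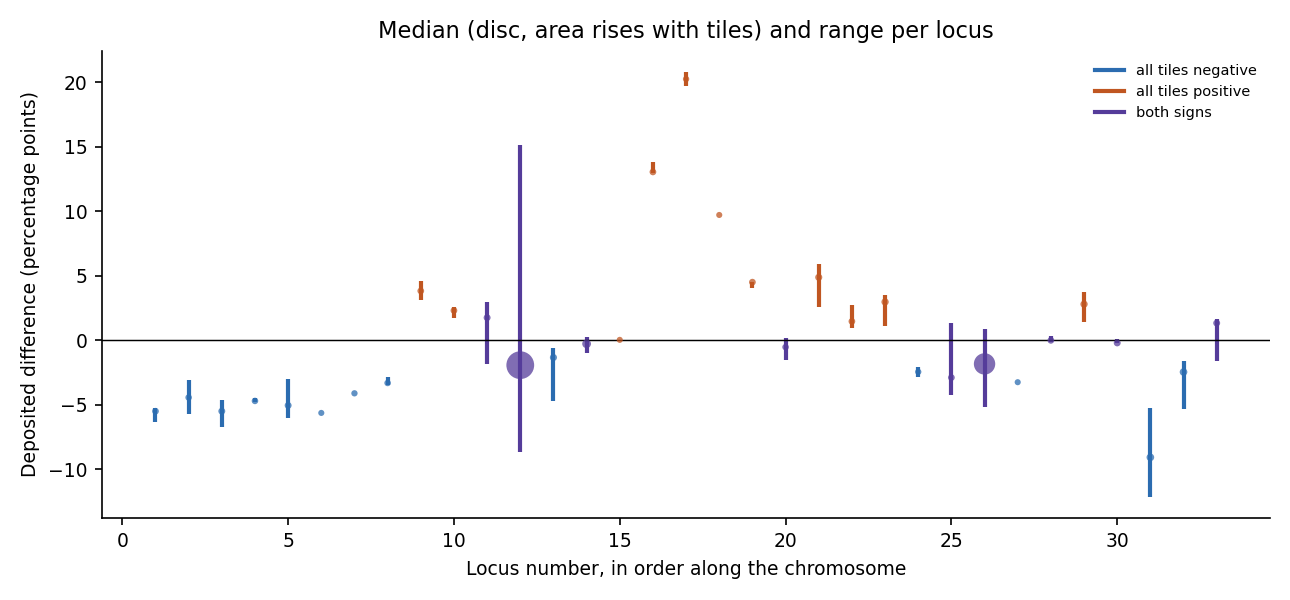
Median (disc, its area rising with the number of tiles) and range (line) of the deposited difference in percentage points for each of the 33 loci in order along the chromosome. The loci with the most tiles, numbers 12 and 26, have negative medians of -1.94 and -1.84, and number 17 reaches 20.8 percentage points.

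The locus with the most tiles changed sign between neighbouring tiles. It spans 297401 to 330300 and holds 283 tiles, of which 238 were negative. From 310201 to 323400 its longest run counted 118 tiles without a positive one, with a median of -2.55 percentage points, and 112 of them had a q under 0.05. The strongest, from 321401 to 321900, stood at -7.10 points by the authors' deposited table (q = 5.74e-19).

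The last negative tile of that run, from 322901 to 323400, had -1.84 points by the authors' deposited table (q = 0.0224). The next listed tile starts 400 bp further on and shares 100 bp with it. It runs from 323301 to 323800 and had 5.06 points (q = 9.60e-06) by the authors' deposited table. The last 10 negative tiles ranged from -4.92 to -1.84 percentage points, and the first 10 positive tiles from 2.58 to 7.63. The tiles were split by sign, so a gap between these ranges is no finding.

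The positive run held 36 tiles over 5200 bp, and 35 of them had a q under 0.05. Its values were highest at its far edge, where the last 10 tiles had a median of 8.61 percentage points, against 4.83 for the whole run. Only 4 of its tiles were called. From 327701 to 328500 they had 11.8, 12.5, 12.7 and 15.1 points by the authors' deposited table, in the order of their starts. The q of the last, the largest of the run, was 1.23e-34. After a gap of 800 bp the sign changed again: 6 tiles from 329301 to 330300 had -8.68 to -4.03 points by the authors' deposited table, all with a q under 0.05. The called tiles lay 10569 to 10869 bp from the nearest edge listed for ENSBTAG00000006648, an edge that comes from an intron deposited with its start above its end.

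**Figure D3:**
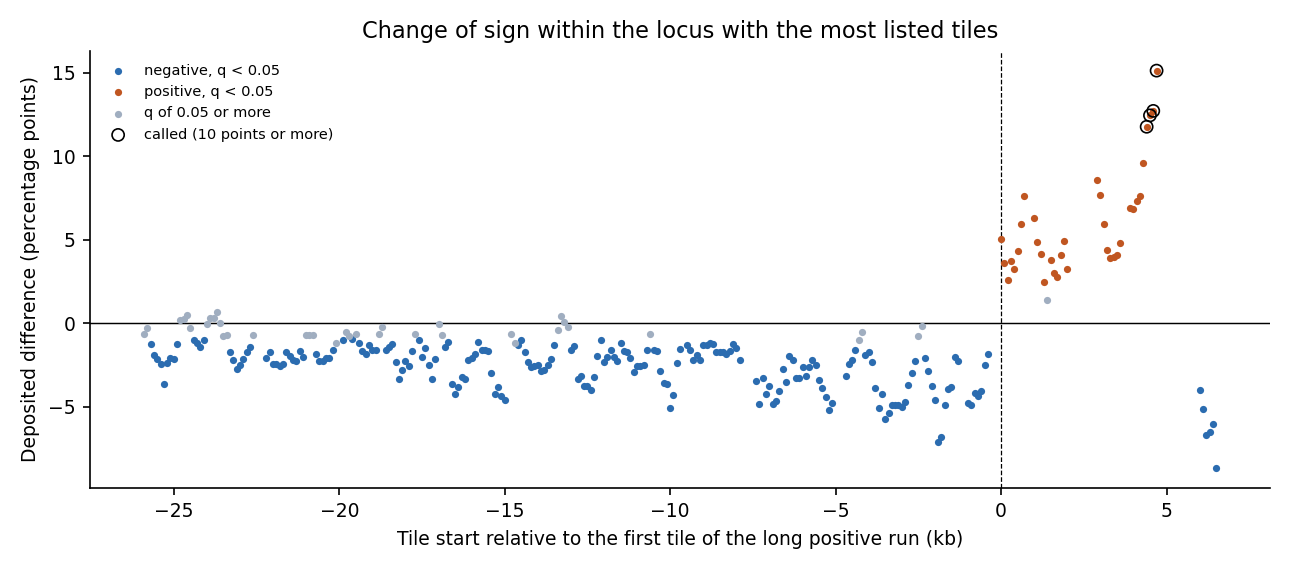
Deposited difference (percentage points) of the 283 tiles of the locus with the most tiles, against the start of each tile relative to the first tile of the long positive run (kb). Tiles to the left of the dashed line are nearly all negative, the run to its right reaches 15.1 percentage points, and the last 6 tiles are negative again, down to -8.68.

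The tiles listed within ENSBTAG00000006648 had only small differences, and they cover only part of it. At positions just below the gene, 6 tiles from 336001 to 337100 were classed by the authors as downstream. All were negative, from -4.69 to -0.63 points by the authors' deposited table, and 3 of them had a q under 0.05. The features listed for this gene, on the minus strand, span 339069 to 350389. The lower edge is again that of the intron deposited with its start above its end, and is uncertain. Over that span 16 member tiles were listed, all between 345101 and 348200, with a median of -0.28 percentage points. The rest of the span had no listed tile. None was called, and 5 had a q under 0.05. Of the 16, 14 overlap a CpG island from 346693 to 347766. A tile was counted as on an island if it shared at least 1 base with it. In those 14 tiles the differences ran from -0.54 to 0.23 points by the authors' deposited table. The -0.54 belongs to the tile from 346201 to 346700, which reaches the island only with its last bases. Among the 14, the tile with the smallest q, from 346901 to 347400, also overlaps an intron of the gene. It had -0.49 points (q = 0.00196) by the authors' deposited table.

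Both other CpG islands that were the closest feature of a listed tile were near 0 as well. An island that was never the closest feature could not be seen, and its tiles would count as off the islands. The island from 593738 to 594630 had 4 tiles between -0.12 and 0.34 points by the authors' deposited table, and the island from 625572 to 626384 had 5 between -0.23 and 0.12. Over the 3 islands the median size of the difference was 0.22 percentage points in 23 tiles, and over the 561 members off the islands it was 2.26. A q under 0.05 was reached by 7 of the 23 island tiles and by 454 of the 561 others. The smallest size that reached it was 0.235 percentage points on the islands and 0.939 off them. The largest size that did not reach it was 0.541 on the islands and 1.95 off them. Depth per tile is unknown, and its part in this was not tested. Between the second and the third island, 7 tiles from 603701 to 604800 were all positive with a q under 0.05. The largest of them, from 603901 to 604400, had 3.73 points (q = 2.71e-06) by the authors' deposited table and lay off the islands.

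**Figure D4:**
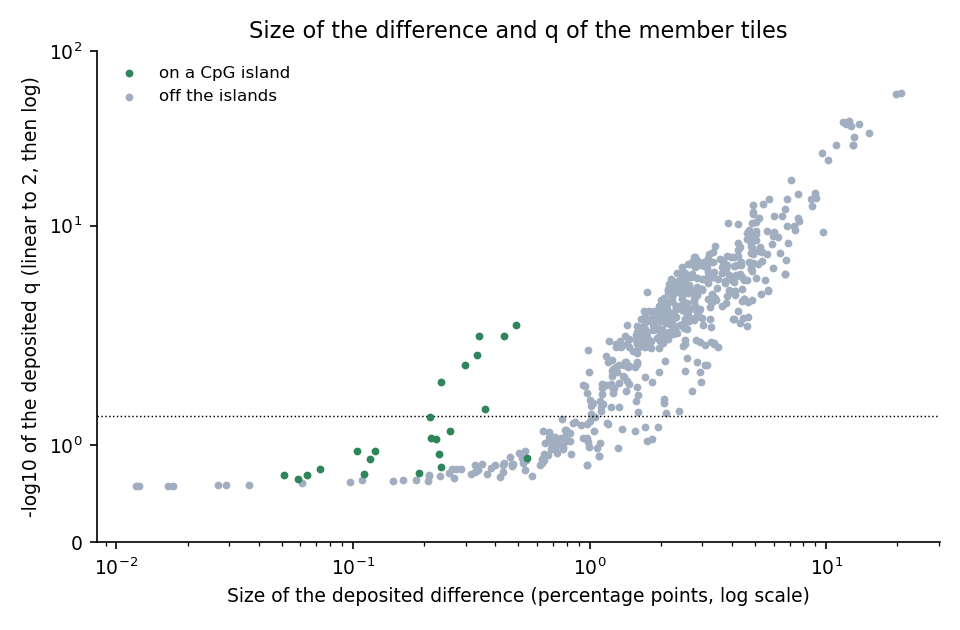
The -log10 of the deposited q against the size of the deposited difference in percentage points (log scale) for the 584 member tiles, with tiles on a CpG island in green and the dotted line at a q of 0.05. Above the line the 7 island tiles, from 0.235 percentage points on, lie to the left of all 454 tiles off the islands, which start at 0.939.

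On the other side of ENSBTAG00000006648 lay the largest positive differences of the whole table. All 12 tiles from 364801 to 408600, in 5 loci, were positive, and 11 had a q under 0.05. They are closest to a coding exon of the gene from 350267 to 350389, with gaps of 14412 to 57712 bp, and are classed as distal intergenic. At 372601 to 373400 all 4 tiles were called, with 13.8, 13.0, 13.0 and 13.1 points by the authors' deposited table, in the order of their starts. The middle pair has the same p and difference to every deposited digit. A repeat of that kind was found at 9 members, and such tiles add no separate evidence.

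At 379101 to 379700 were 2 overlapping tiles with 20.8 and 19.7 points (q = 2.84e-58 and q = 4.72e-57) by the authors' deposited table. The 20.8 is the largest positive difference listed and, by size, number 3 of all listed tiles. Farther on, a lone tile from 404001 to 404500 had 9.72 points by the authors' deposited table (q = 5.85e-10), and 4 tiles from 407801 to 408600 had 4.06 to 4.50. By contrast the tile nearest to the gene, from 364801 to 365300, had 0.027 points (q = 0.258) by the authors' deposited table.

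Positive values continued at a lower level and then gave way to a long negative stretch. From 416901 to 435100, 17 tiles in 3 loci were all positive. A q under 0.05 was reached by 6 of 6 tiles in the first of these loci, 1 of 4 in the second and 5 of 7 in the third. The largest difference, from 418001 to 418500, was 5.88 points by the authors' deposited table (q = 1.42e-08). Between these 3 loci and the tiles that end at 408600, 3 tiles from 413001 to 413700 lay from -1.56 to 0.21 points by the authors' deposited table, none with a q under 0.05. After these loci, 2 negative tiles from 436901 to 437500 and 3 negative and 1 positive tile from 444901 to 446300 ranged from -4.24 to 1.32, and the 5 negative ones had a q under 0.05. The locus from 450901 to 474000 held 162 tiles, of which 155 were negative and 112 had a q under 0.05. Its median was -1.84 percentage points, and none of its tiles was called. The strongest, from 464101 to 464600, had -5.21 points by the authors' deposited table (q = 8.84e-12). No tile of this locus with a positive difference had a q under 0.05. The closest feature was an exon from 475398 to 475516 on the plus strand, listed with the transcript ID ENSBTAT00000082524 and no gene. Of the 188 members closest to it, 66 upstream of it were placed by the authors in their promoter class, and none overlapped it. Those 66 start 1897 to 9697 bp before the exon, so the class is a wide one. Past this locus no tile was listed for 108100 bp, from 474001 to 582100, and the lone tile that follows, from 582101 to 582600, had -3.26 points by the authors' deposited table (q = 0.00705).

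The called negative tiles lay in an intron of ENSBTAG00000054829, a protein-coding gene on the plus strand that the table does not name. The intron runs from 645954 to 668044. All 18 listed tiles inside it were negative with a q under 0.05, and their median was -5.32 percentage points. The 4 called tiles, with starts at 646401, 646501, 646601 and 647101, had -11.0, -12.1, -12.0 and -10.1 points by the authors' deposited table. The largest, from 646501 to 647000, had a q of 4.17e-39 there. The following 4 tiles came closer to 0 with each step, and the last, from 647501 to 648000, had -5.28 points by the authors' deposited table (q = 8.12e-05). Farther on, the tile from 648601 to 649100 had -9.09 points (q = 4.59e-15) by the authors' deposited table.

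A second group in the same intron, 9 tiles from 657301 to 659500, surrounds an exon of the minus-strand transcript ENSBTAT00000064346 from 658163 to 658288. The authors' deposited table gives it -5.36 to -1.58 percentage points, and the value farthest from 0 belongs to the tile from 659001 to 659500 (q = 4.81e-07). Past the coding exon that ends ENSBTAG00000054829 in the table, from 668045 to 668340, 5 tiles lay 1661 to 2061 bp away. Of these, 4 were positive, with 1.24 to 1.67 points by the authors' deposited table, and 1 had -1.60. Their q-values ran from 0.00411 to 0.0455. No ID of these rows, neither the 2 gene IDs nor the 5 transcript IDs, was found in the RefSeq gene table of ARS-UCD2.0, so the genes are given by ID alone. In that table's order along the chromosome, entries with only a LOC symbol come first, followed by olfactory receptor genes and pseudogenes such as OR9M6 and then by CLIC6, of the chloride intracellular channel family, and RCAN1, a regulator of calcineurin. Whether any of them is one of the features given by ID is unknown.

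Other chromosomes also had many listed tiles at their proximal ends, and none of those tiles was called. Below the same start, chromosome 13 had 397 listed tiles with a median of -1.26 percentage points and a range of -6.95 to 6.91. Chromosome 16 had 189 with a median of -1.80 and a range of -7.24 to 2.61. Over the 21 other chromosomes with tiles there, 1428 tiles had a median of -1.64 percentage points and 75.9% were negative, beside -1.72 and 80.8% for chromosome 1. Their range was -9.48 to 8.21, and 80.2% had a q under 0.05, beside 78.9%. On the rest of chromosome 1, 138 tiles had a median of -0.26 percentage points, and 3 of them (2.17%) were called, all negative. The called share was 0% of the 1428 tiles, 2.40% of the members and 2.78% of all listed tiles. These values are set side by side without a test.

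Tiles were joined into blocks wherever gaps stayed within 50000 bp. The block from 210901 to 474000 on chromosome 1 held the most tiles of any block, 540, though not the most per length. Its called tiles were 10 positive and 0 negative, or 1.85% of its tiles. The blocks next in number lay on chromosomes X (326 tiles), 18 (297) and 14 (296). Their called tiles were 45 (13.8%), 6 (2.02%) and 26 (8.78%), all negative. Of all listed tiles 203, or 2.78%, were called, and 192 of these were negative. The highest difference in these 3 blocks was 1.51 percentage points on X, 3.47 on 18 and 1.54 on 14, beside 20.8 in the block on chromosome 1.

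**Figure D5:**
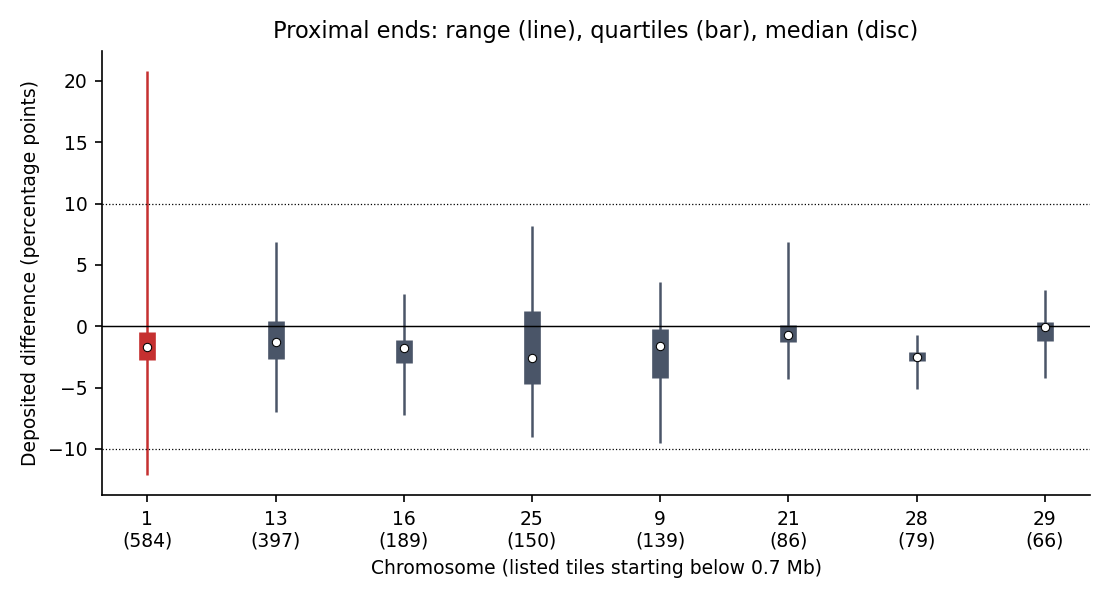
Range (line), quartiles (bar) and median (disc) of the deposited difference in percentage points for tiles starting below the boundary on the 8 chromosomes with the most of them, chromosome 1 in red and numbers of tiles in brackets. Medians lie between -2.55 and -0.05, and only chromosome 1 passes the dotted lines at 10 percentage points in either direction.

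The boundary lay in a stretch with no listed tile, whereas the minimum difference fell between neighbouring tiles. The members just inside the minimum of 10 percentage points had -10.1 and -11.0 points by the authors' deposited table, and those just outside it 9.72 and 9.59. The last members, from 670301 to 670800 and from 670401 to 670900, had 1.24 and 1.46 points by the authors' deposited table. The next listed tiles on chromosome 1, from 2733701 to 2734200 and from 2733801 to 2734300, had 3.79 and 3.34 there.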

How the data were processed

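Sperm DNA of 6 low BFI and 6 high BFI samples was sequenced by EM-seq, per the labels' protocols. Named in the submitters' processing notes are Trimmomatic, Bismark, methylKit and the builds ARS-UCD1.2 and bosTau9, which all positions follow; roles, versions, settings, coverage limits and the rule for listing a tile are not given in the sources used here. The values of a tile are, per the file headers, its p-value and q-value and the difference in methylation, which was read as percentage points. It has no column per sample (0 left unmatched), so no new test between groups could be made. The members, lists and thresholds were chosen with earlier results of these data known.

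A tile was called at a deposited q under 0.05 and a difference of at least 10 percentage points. Loci join tiles with edge gaps of at most 1000 bp, runs also require 1 sign, and blocks allow 50000 bp. Intervals of shares are exact binomial ones, treat overlapping tiles as independent and are therefore too narrow. Every deposited distance is from the tile's start, so gaps were recomputed between nearest edges. For 330 members the closest intron is deposited with its edges reversed (346960 to 339069), and they were swapped. Swapped, it spans a coding exon (346602 to 346889) and other introns listed for the same gene. Its edges, and the gaps measured from them, are therefore uncertain. Tiles named are those with the largest difference or smallest q of each run, block, region and closest feature, and those beside the limits. Settings varied were the minimum difference, q against p, overlap of tiles, the boundary and the joining gap. Functions were tested on simulated tiles. No sequence is shown, since no genome of the files' build was used here. Tables were made with pandas 2.3.3 and NumPy 2.4.6 in Python 3.11.15, intervals with SciPy 1.17.1 and figures with matplotlib 3.10.9.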

Additional observations from a re-analysis of the deposited data

How the results depend on the processing

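The number of called members depended on the minimum difference: 61 were called at 5 percentage points and 1 at 20, against 14 at 10. Between 5 and 10 percentage points lay 8.05% of the members, against 13.0% of the other listed tiles. At 10 or more lay 2.40%, against 2.82%. All of these tiles had a q under 0.05, so at both sizes the members had the lower called share. A q under 0.01 or a p under 0.05 in place of q left the called members at 14. The count at any difference was then 388 and 419, against 461. For those 2 settings, and for the minimum of 20 percentage points, the share of all listed tiles was not computed. The negative share rested on the dense loci. Counted as 1 mean per locus it was 57.6% of 33 loci and the median was -0.63 percentage points, since 445 of the 584 tiles lie in 2 loci. In tiles that share no base (142), at a boundary of 500000, in tiles of at least 1 percentage point and in those with a q under 0.05 the share ran from 78.2% to 82.9%. The medians computed without overlap and below 500000 were -1.62 and -1.73. Joining gaps of 100 and 2000 bp gave 69 and 57 runs, against 60, and 3 positive called regions each. No paired analysis was possible because the table has no values per sample and the groups share no replicate number, and for the same reason no sample could be left out. Depth per tile is unknown and limits every value.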

Other observations

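On some chromosomes the listed tiles were gathered at the start. Of the 7290 tiles, 2012 (27.6%) on 22 chromosomes start below 700000, and on chromosome 1 these are 80.9% of the 722 listed there. On chromosome 13 they were 76.5% of 519, on chromosome 28 90.8% of 87 and on chromosome 18 9.02% of 632. Chromosomes 1 and 13 supplied 584 and 397 of the 2012, and on chromosome 17 the share was 1.59% of 63. The sources used here do not give the authors' rule for listing a tile.

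The largest positive differences in the table were mostly on the proximal end of chromosome 1, which supplied 13 of the 20 largest. The members are 584 of the 7290 listed tiles. Most of the 13 overlap another of them and so are not separate evidence. The members were chosen with their signs known, so nothing is read from this count. The first from another chromosome was the tile from 13425201 to 13425700 on chromosome 19, with 11.2 points by the authors' deposited table (q = 1.42e-30). Order by size and order by q differed among the members. The tile from 328001 to 328500 was number 3 by size and number 9 by q, and the tile from 404001 to 404500 was number 15 by size and number 45 by q.

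The authors' position class did not always mark an overlap with the closest feature. Of the 556 members not classed as within a feature, 7 overlapped the closest feature by at least 1 base.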
